A study of Mus musculus with 5 samples.

Results

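The genes described here are 10 genes known from lymphoid cells and their precursors, Dntt, Rag1, Rag2, Il7r, Notch1, Cd27, Cd7, Klrd1, Ly6d and Btla, as measured in mouse monocyte and dendritic cell progenitors and in monocytes. They were selected on earlier results from these same 5 arrays, so their values are given as a description and no test is made of them. All 10 were measured, each by 1 probe set, among 19938 genes that could be named from a probe set with a single gene symbol. RNA from 5 sorted populations of wild type C57Bl/6 bone marrow was hybridised, with 1 array per population and no replicate. All 5 populations were Lin- and CD115+. The monocyte-dendritic cell progenitor (MDP) was sorted as CD117+ CD135+, the common dendritic cell progenitor (CDP) as CD117int CD135+, and the common monocyte progenitor (cMoP) as CD117+ CD135-. Classical monocytes were Ly6C+ TremL4- and nonclassical monocytes Ly6C- TremL4+. The cells were untreated, and the sources used here do not state the age or number of the mice. A lower value in a sorted population can come from fewer cells with the transcript or from less RNA per cell, and these cannot be told apart.

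Lymphoid priming is the low-level transcription of lymphoid genes in progenitors that still make myeloid cells. Dntt, Rag1 and Rag2 encode the enzymes that cut and extend antigen receptor gene segments, Il7r and Notch1 encode receptors that drive B and T cell development, and Cd27, Cd7, Ly6d, Klrd1 and Btla encode surface proteins of lymphocytes and their precursors. Flt3, which encodes CD135, marks progenitors that keep lymphoid and dendritic potential, and plasmacytoid dendritic cells are known to carry several lymphoid transcripts.

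Values are the authors' deposited numbers, read here as log2 signal. A difference of 1 log2 unit is thus 2-fold. The floor is 6.27, the median over all named genes and arrays, and a gene counts as higher or lower where it differs by at least 1 log2 unit and the higher array reaches the floor. Where the lower array lies under the floor, the fold is computed against the floor and given as "at least". With 1 array per population there is no spread to set a difference against, so no order of neighbouring values can be called beyond error.

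The 10 genes did not share a single pattern. They fell into 4 arrangements: Dntt, Cd27, Rag1 and Rag2 were highest in MDP, Il7r was nearly level across MDP and CDP, Cd7, Klrd1 and Ly6d stood out in CDP, and Notch1 and Btla were present on all 5 arrays. The top array led the next by only 0.16 for Rag1, 0.17 for Notch1, 0.39 for Il7r and Rag2 and 0.50 for Btla. The placement of these genes by top array describes their values and is no order beyond error. As the genes were selected on these same arrays, their levels are no support for the name lymphoid-primed in dendritic progenitors. Dntt and Il7r reached the floor in MDP and CDP only, and Cd7, Klrd1 and Ly6d in CDP only. Cd27 was highest in MDP and next in CDP. Rag1 and Rag2 were under the floor everywhere, and Btla was highest in monocytes.

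**Figure D1:**
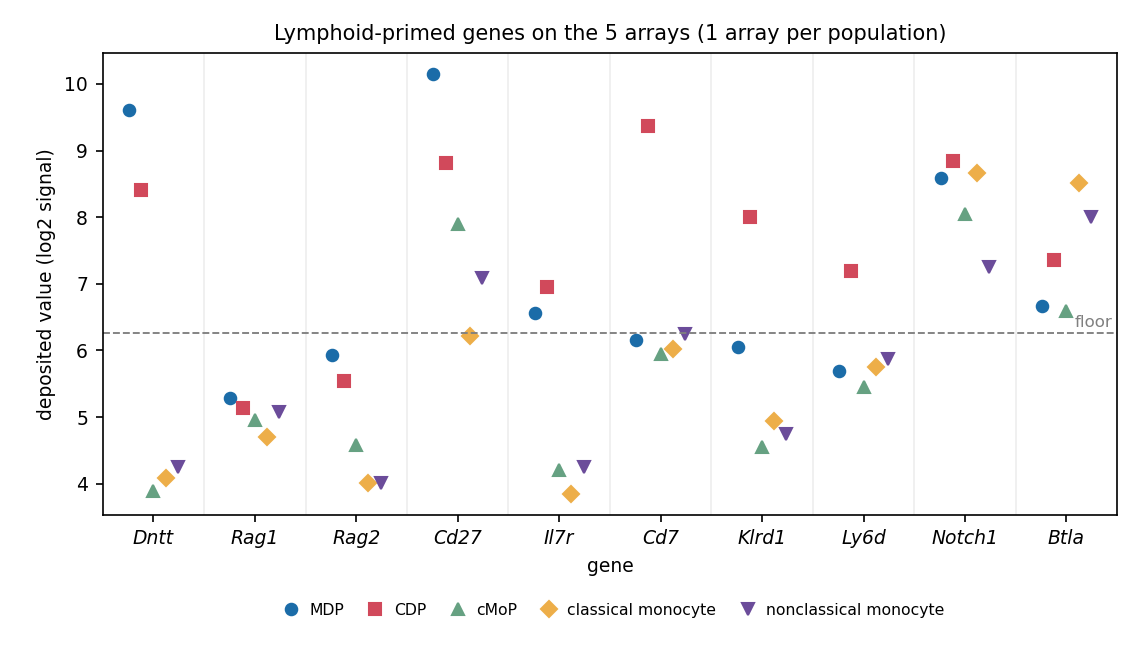
Deposited log2 value (vertical axis) of each of the 10 genes (horizontal axis) on the 5 arrays, 1 symbol per population, with the floor of 6.27 dashed. Dntt and Il7r lie above the floor in MDP and CDP only, Cd7, Klrd1 and Ly6d in CDP only, and Rag1 and Rag2 on no array.

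The 3 genes that were higher in MDP than in cMoP have a window in the RefSeq promoter table (build GRCm38.p6), and their upstream sequence is shown because all 3 were lower in cMoP. Each stretch lies just before the annotated span of the gene, inside the 250 bases before the tabulated transcript start, and capitals mark the E-box letters CANNTG, the site type of E proteins and other basic helix-loop-helix factors, which reads alike on both strands. The last capitals of the Cd27 stretch begin an E-box that runs past it. The Dntt stretch is chr19:41029025-41029274 on the plus strand, the Il7r stretch chr15:9529942-9530126 on the minus strand and the Cd27 stretch chr6:125237137-125237277 on the minus strand.
Dntt: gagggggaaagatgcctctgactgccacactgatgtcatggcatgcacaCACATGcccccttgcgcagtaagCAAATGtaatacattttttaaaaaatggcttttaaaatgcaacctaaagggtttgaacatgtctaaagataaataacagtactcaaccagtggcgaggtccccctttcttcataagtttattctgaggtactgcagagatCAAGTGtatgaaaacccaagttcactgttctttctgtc
Il7r: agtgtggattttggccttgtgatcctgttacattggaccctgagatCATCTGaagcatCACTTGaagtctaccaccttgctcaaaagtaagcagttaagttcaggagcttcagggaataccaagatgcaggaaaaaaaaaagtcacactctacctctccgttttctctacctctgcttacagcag
Cd27: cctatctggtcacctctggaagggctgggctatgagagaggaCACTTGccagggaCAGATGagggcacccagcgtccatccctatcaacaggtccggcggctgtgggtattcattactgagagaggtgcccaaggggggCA

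Over the whole 250-base window Dntt, Il7r, Cd27 and Rag1 held 3 E-boxes each, Rag2 and Btla 1 each, and Notch1 none. At least 1 E-box was found in 66.2% of the 32851 RefSeq windows of this length and 3 or more in 12.2%. The RUNX letters TGTGGT, searched on both strands, occurred at 2 places in the Rag1 window and 1 in the Btla window, against at least 1 in 14.0% of all windows. The letters TGGGAA, the core that the Notch partner RBPJ binds, occurred in the Rag1 window at 1 place and in 21.6% of all windows. In the Rag1 window a RUNX match shares its first letters with an E-box. A match describes the window without showing binding. Of the 10 genes 7 matched the promoter table, all but Cd7, Klrd1 and Ly6d.

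Dntt encodes terminal deoxynucleotidyl transferase, the polymerase that adds untemplated bases at antigen receptor joints. Its value was 9.61 in MDP, 8.41 in CDP, 3.89 in cMoP, 4.09 in classical monocytes and 4.25 in nonclassical monocytes. Both CD135+ arrays were high and the other 3 lay far under the floor. CDP was 2.29-fold lower than MDP (-1.2), and MDP was at least 10.1-fold higher than cMoP (5.71). CDP was at least 4.42-fold higher than cMoP (4.52). Of all genes past the floor in MDP or cMoP, 99.99% differed by less than Dntt did.

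Rag1 and Rag2, the subunits of the recombinase that cuts antigen receptor genes, stayed under the floor. Rag1 was at 5.29 in MDP, 5.13 in CDP, 4.95 in cMoP, 4.71 in classical and 5.08 in nonclassical monocytes, a range of 0.59. Rag2 was at 5.94 in MDP, 5.55 in CDP, 4.59 in cMoP and 4.01 in both monocyte arrays, whose values are identical. Rag2 was thus ordered like Dntt among the progenitors, with 1.35 between MDP and cMoP, but at signal too dim to count. Rag1 and Rag2 lie side by side on chromosome 2.

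No other gene of V(D)J recombination and end joining on the list passed the threshold between the progenitors. Of 13 measured, 11 were past the floor in MDP or cMoP and 0 were higher or lower by the threshold, nor were any in CDP against cMoP or CDP against MDP. Prkdc, the catalytic subunit of the DNA-dependent protein kinase, was at 8.28 in MDP and 7.71 in cMoP. Hmgb2, a DNA-bending cofactor of the recombinase, was at 12.23 in MDP, 12.13 in CDP and 12.15 in cMoP. The list's median was 0.07 for MDP minus cMoP and -0.28 for CDP minus MDP, beside 0.00 and -0.01 over all genes past the floor.

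Il7r encodes the alpha chain of the interleukin-7 receptor, needed for B and T cell precursors. It was at 6.56 in MDP, 6.95 in CDP, 4.20 in cMoP, 3.85 in classical and 4.25 in nonclassical monocytes. Only MDP and CDP lay above the floor, and both by little, so its folds are small as bounds although the log2 differences are wide. MDP was at least 1.22-fold higher than cMoP (2.36) and CDP at least 1.6-fold (2.75), while CDP and MDP differed by 0.39.

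Among genes that act with the interleukin-7 receptor Bcl2 was the 1 gene past the threshold in MDP or CDP against cMoP. Of 14 measured, 10 were past the floor, and 1 was higher in MDP than in cMoP and in CDP than in cMoP, with 0 lower in either. Bcl2, a survival factor, was at 11.19 in MDP, 11.04 in CDP, 9.84 in cMoP, 7.23 in classical and 8.75 in nonclassical monocytes. Stat5a, a transcription factor activated by the receptor, lay between 8.05 and 8.18 on the 5 arrays, and Jak1, a receptor-bound kinase, between 9.76 and 10.73. Il7, the ligand, was at 3.75 on every array. The shared gamma chain Il2rg and the kinase Jak3 lacked a probe set with a single symbol and are not analysed here.

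Cd27 encodes a receptor of the tumour necrosis factor family found on early progenitors and lymphocytes. It was at 10.15 in MDP, 8.82 in CDP, 7.90 in cMoP, 6.22 in classical and 7.08 in nonclassical monocytes. In order of value MDP came first, then CDP, cMoP, nonclassical and classical monocytes, and nonclassical monocytes lay above classical ones by 0.86. CDP was 2.52-fold lower than MDP (-1.33), and MDP was 4.76-fold higher than cMoP (2.25). CDP exceeded cMoP by 0.92, just short of the threshold. Classical monocytes were at least 3.10-fold lower than cMoP (-1.68). Its ligand Cd70 was between 4.20 and 4.28 on all 5 arrays, under the floor.

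Cd7 encodes an immunoglobulin-like surface protein of T and natural killer cells and their precursors. It was at 9.37 in CDP, 6.15 in MDP, 5.95 in cMoP, 6.02 in classical and 6.24 in nonclassical monocytes. CDP stood alone, and the other 4 arrays lay within 0.30 of each other and under the floor. CDP was at least 8.57-fold higher than each of MDP (3.21), cMoP (3.42) and classical monocytes (3.35).

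Klrd1 encodes CD94, a lectin-like chain that pairs with NKG2 chains on natural killer cells. It was at 8.0 in CDP, 6.05 in MDP, 4.55 in cMoP, 4.94 in classical and 4.74 in nonclassical monocytes. CDP was at least 3.33-fold higher than MDP (1.95) and than cMoP (3.45). MDP lay 1.5 above cMoP, but with both under the floor. The genes of its partner chains, Klrc1, Klrc2 and Klrc3, were all under the floor, with values from 2.35 to 4.41.

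Ly6d encodes a small GPI-anchored protein that marks B-lineage-biased lymphoid progenitors. It was at 7.19 in CDP, 5.69 in MDP, 5.46 in cMoP, 5.75 in classical and 5.87 in nonclassical monocytes. CDP was again the single array above the floor, at least 1.89-fold higher than MDP (1.5), cMoP (1.73) and classical monocytes (1.44).

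Few receptors related to Klrd1 and Ly6d reached the floor, so their counts are not read as a result about either list. In the list of natural killer receptors and ligands 19 genes were measured and 4 reached the floor on some array. In CDP against MDP 0 of those 4 were higher (1.15% of all genes) or lower (1.06%). In CDP against cMoP 0 were higher (2.2%) or lower (3.23%). Klrk1, which encodes NKG2D and lies next to Klrd1 on chromosome 6, was at 6.84 in CDP and 6.07 in MDP, cMoP and classical monocytes. Among 21 measured genes of the Ly6 family and its relatives, 9 were past the floor in CDP or cMoP, with 1 higher (2.2% of all genes) and 1 lower (3.23%). The higher one was Lynx1 (1.22), a relative next to Ly6d on chromosome 15, at 6.89 in CDP and 5.67 in cMoP, and the lower one was Plaur (-1.02), the urokinase receptor.

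Notch1, the receptor that commits progenitors to the T lineage, was above the floor on every array. It was at 8.58 in MDP, 8.84 in CDP, 8.04 in cMoP, 8.66 in classical and 7.25 in nonclassical monocytes. MDP, CDP and classical monocytes lay within 0.25 of each other, and nonclassical monocytes were 2.66-fold lower than classical ones (-1.41). CDP exceeded cMoP by 0.79, under the threshold. Notch2, a second receptor of the family, was lowest in cMoP (8.32) and highest in nonclassical monocytes (10.70).

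Of 37 measured genes of the Notch pathway, 24 were past the floor in MDP or cMoP, with 3 higher in MDP and 0 lower. They were the coactivators Maml3 (1.27) and Maml2 (1.22) and the glycosyltransferase Lfng (1.10), which modifies Notch receptors. In CDP against cMoP 2 of 24 were higher, Maml3 (1.35) and Maml2 (1.2), and 0 lower. Hes1, a target gene of Notch signalling, was between 5.53 and 5.57 on 4 arrays and at 7.59 in nonclassical monocytes. In nonclassical against classical monocytes 3 of 26 pathway genes were higher (3.55% of all genes) and 0 lower (9.82%). The higher ones were Hes1 (2.06), Lfng (2.04) and Maml2 (1.89), and Notch1 itself was lower.

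Btla encodes an inhibitory receptor of B and T cells. It was at 6.67 in MDP, 7.35 in CDP, 6.59 in cMoP, 8.51 in classical and 8.01 in nonclassical monocytes. Both monocyte arrays exceeded all 3 progenitor arrays. Classical monocytes were 3.79-fold higher than cMoP (1.92) and CDP was 2.23-fold lower than classical monocytes (-1.16). Among progenitors CDP was the highest, by 0.68 over MDP and 0.76 over cMoP. Its ligand, the receptor HVEM encoded by Tnfrsf14, lay between 8.28 and 9.12 on all 5 arrays.

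In the list of CD27, BTLA and related receptors and ligands, 14 of 24 measured genes were past the floor in CDP or cMoP. There 1 was higher in CDP, Tnfrsf13c (1.05), the receptor for the B cell survival factor BAFF, and 0 were lower. MDP against cMoP had 0 of 13 past the threshold.

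Counts over the members are read beside the share of all genes past the floor that met the same criterion. Because the members were selected on these arrays, and a gene bright on a single array passes the floor only where it differs, the counts describe the selection. In CDP against MDP, 8 members passed the floor. Of these 3 were higher, Cd7, Klrd1 and Ly6d (1.15% of all genes), and 2 were lower, Dntt and Cd27 (1.06%). In MDP against cMoP 5 members passed the floor, with 3 higher, Dntt, Il7r and Cd27 (1.4%), and 0 lower (1.44%). In CDP against cMoP 8 passed, with 5 higher, namely Dntt, Il7r, Cd7, Klrd1 and Ly6d (2.2%), and 0 lower (3.23%). These 3 comparisons share arrays and are not independent. The same shares of all genes apply to the counts of the gene lists in these comparisons.

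**Figure D2:**
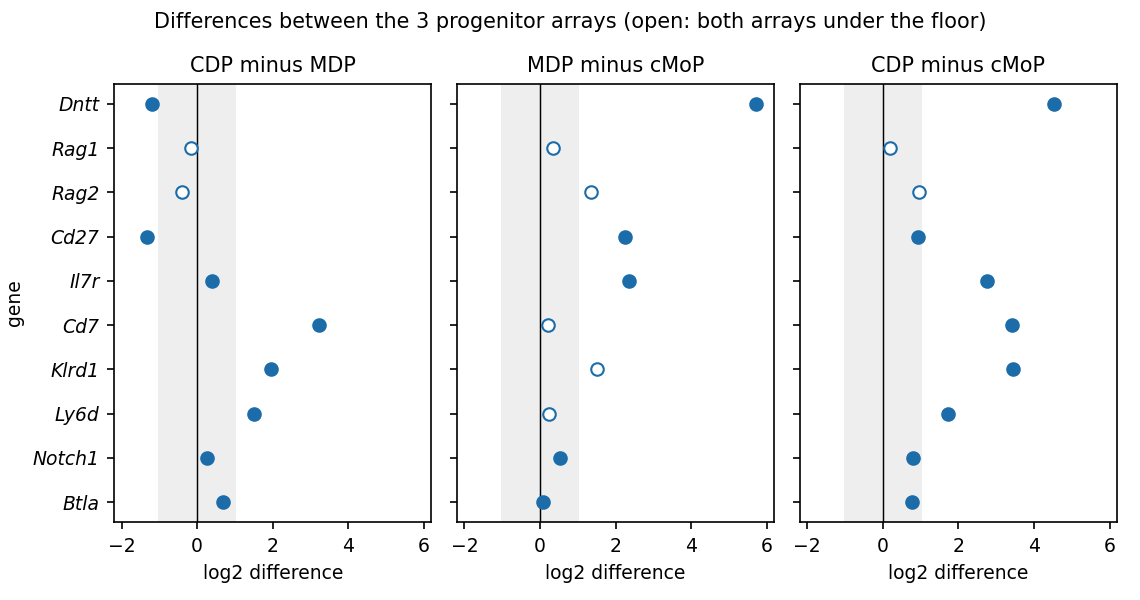
Log2 difference (horizontal axis) of each gene (vertical axis) between the 3 progenitor arrays, with the band of less than 1 log2 unit in grey and open points where both arrays are under the floor. Cd7, Klrd1 and Ly6d lie right of the band in CDP minus MDP, Dntt and Cd27 lie left of it, and no gene lies left of it in the other 2 panels.

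Toward the monocytes, 6 of 8 members past the floor were higher in CDP than in classical monocytes, all but Notch1 and Btla (2.38% of all genes), and Btla was the 1 lower member (6.34%). In classical monocytes against cMoP 3 members passed the floor, with Btla higher (7.01%) and Cd27 lower (4.4%). In nonclassical against classical monocytes 3 passed, with 0 higher (3.55%) and 1 lower, Notch1 (9.82%). Over all 10 members the median difference was 0.32 for CDP minus MDP, 0.95 for MDP minus cMoP, 1.35 for CDP minus cMoP and 2.07 for CDP minus classical monocytes. Over only the members past the floor these medians were 0.54, 2.25, 2.24 and 2.83 in the same order. Those over all genes past the floor ran from -0.02 to 0.00.

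Joint patterns over the 5 arrays were counted the same way, over 8 members with a highest value at or above the floor. Dntt, Il7r and Klrd1 were at least 1 log2 unit higher in both CD135+ progenitors than in any of the other 3 arrays (3 members, 0.181% of all genes), with margins of 4.16, 2.31 and 1.11. For Klrd1 the MDP value in this margin is under the floor, and for Il7r it is little above the floor, at 6.56. Cd27 missed this criterion with a margin of 0.92. CDP led all other arrays by at least 1 log2 unit for Cd7 (3.12), Klrd1 (1.95) and Ly6d (1.32), or 3 members (0.199%), and MDP led for Cd27 (1.33) and Dntt (1.2), or 2 members (0.244%). No member was led by cMoP (0 members, 0.28%), classical monocytes (0 members, 1.09%) or nonclassical monocytes (0 members, 2.88%). None was at least 1 log2 unit higher in all 3 progenitors than in both monocytes (0 members, 0.787%), where Cd27 came nearest with 0.82.

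Genes with the most similar profile were found by the root mean square difference between gene-centred values over the 5 arrays, for the 5 members that reached the floor and ranged over at least 2 log2 units. The gene nearest to Dntt was Flt3 (0.59 log2 units), which belongs to the sort gate and was at 10.75 in MDP, 10.74 in CDP, 6.40 in cMoP, 6.74 in classical and 5.77 in nonclassical monocytes. It was followed at a distance by Gm4759 (1.11) and Aff3 (1.21). Nearest to Il7r were Fads2 (0.24), a fatty acid desaturase, Drc7 (0.32) and Satb1 (0.43), a chromatin organiser of lymphoid cells. Satb1 was at 10.70 in MDP, 10.41 in CDP, 8.80 in cMoP, 7.93 in classical and 7.75 in nonclassical monocytes.

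Nearest to Cd27 were Aff3 (0.27), the transcription factor Sox4 (0.29) and Angpt1 (0.40). Nearest to Cd7 were Siglech (0.47), a lectin of plasmacytoid dendritic cells, Srgap3 (0.48) and Upk1b (0.49), and nearest to Klrd1 were Srgap3 (0.37), Rtn4rl1 (0.45) and Upk1b (0.48). Among the members themselves the closest pair was Cd7 and Klrd1 (0.51) and the farthest was Dntt and Btla (2.87).

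**Figure D3:**
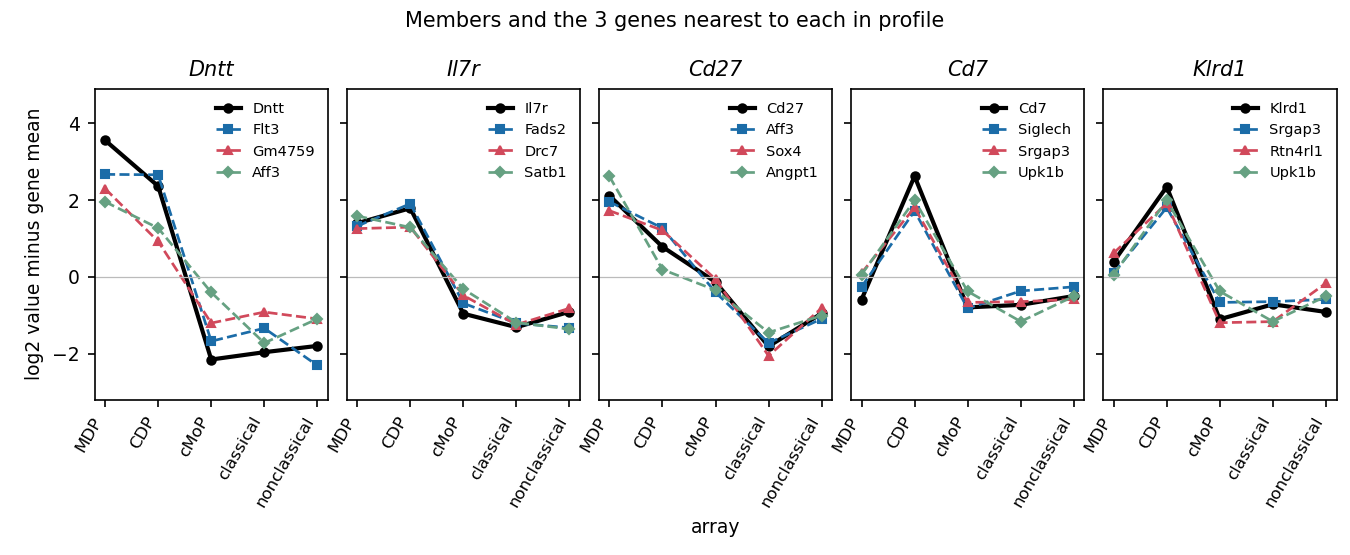
Log2 value minus the gene's own mean (vertical axis) over the 5 arrays (horizontal axis) for 5 members in black and the 3 genes nearest in profile to each in colour. Dntt and Flt3 are high in MDP and CDP, and Cd7, Klrd1 and the genes nearest to them peak in CDP.

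Some lymphoid transcription factors were higher in CDP or MDP than in cMoP, and none was lower by the threshold. Of 30 measured lymphoid transcription factors 22 were past the floor in CDP or cMoP, with 5 higher in CDP and 0 lower, and a median of 0.47. The largest differences were those of Id2 (2.40), an inhibitor of E proteins, Bcl11a (1.77), Bach2 (1.67) and Satb1 (1.61). Tcf4 (1.52), the E protein of plasmacytoid dendritic cells, was the other one. In MDP against cMoP 3 of 19 were higher, Satb1 (1.90), Tcf4 (1.07) and Ikzf2 (1.03), and 0 lower, with a median of 0.47. Ebf1 and Pax5, which commit cells to the B lineage, were under the floor on all arrays, at 4.39 to 4.53 and 5.47 to 5.54.

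Early lymphoid progenitor surface and signalling genes had 7 of 19 higher in CDP than in cMoP and 1 lower, and their median was 0.40. Flt3 (4.34), a gene of the gate, was followed by Slamf7 (2.28), Tspan13 (2.02) and the integrin Itgb7 (1.67), and Kit, also a gene of the gate, was lower (-1.21). Tspan13 and Itgb7 were not highest in CDP. Tspan13 was at 8.51 in CDP and 9.97 in nonclassical monocytes, and Itgb7 at 8.72 in CDP and 9.61 in classical monocytes. In CDP against classical monocytes 6 of 19 list genes were higher (2.38% of all genes) and 0 lower (6.34%). In MDP against cMoP 4 of 18 were higher and 0 lower, namely Flt3 (4.35), the immune GTPase Gimap6 (2.45), Tspan13 (2.17) and Sox4 (1.79). The median was 0.61. In CDP against MDP 2 of 19 were higher and 3 lower. Blnk, an adaptor of the pre-B cell receptor and the neighbour of Dntt on chromosome 19, was under the floor on all arrays, with 5.80 in MDP and 5.92 in CDP.

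Genes beside the members on their chromosomes were counted at the same threshold and floor, but over all neighbours and not only those past the floor. Of 54 different genes among the 3 nearest measured genes on either side of each member, 32 reached the floor on some array. In CDP against cMoP 2 of the 54 passed the threshold, Lynx1 (1.22) beside Ly6d and Scnn1a (-2.06) near Cd27, and in MDP against cMoP only Scnn1a did (-1.05).

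Most markers of lymphocytes that a marrow sort could hold were under the floor. Of 15 measured B cell markers 6 reached the floor in CDP and 4 each in MDP and cMoP. The list's mean log2 value ran from 5.57 in classical monocytes to 5.90 in CDP. Cd79a, the signalling chain of the B cell receptor, was between 4.19 and 5.30, and Ms4a1, which encodes CD20, between 4.01 and 4.14. Some stood higher. Cd22 was at 7.23 in CDP and 5.65 to 5.86 elsewhere, Cd72 at 6.57 in MDP and 6.41 in CDP and 5.10 to 5.74 elsewhere, and Cd79b between 8.41 and 9.5 on all arrays, highest in cMoP. Vpreb1 lay between 6.45 and 6.98 and Ighm between 6.54 and 6.79 on all arrays. Igll1 was at 6.54 in cMoP, 6.34 in CDP and 5.93 to 6.11 elsewhere. The part of B-lineage cells in the values of the members was not tested.

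T cell markers reached the floor for 6 of 15 genes in CDP and for 2 each in MDP and cMoP, with list means from 5.37 in classical monocytes to 5.62 in CDP. Cd3e, a chain of the T cell receptor complex, was between 5.84 and 6.24 and Cd3g between 4.10 and 4.27, under the floor on all arrays. Cd5 was at 6.54 in CDP and 6.14 to 6.33 elsewhere, and Cd6 at 6.51 in CDP and 6.03 to 6.47 elsewhere. Cd8a was at 6.38 in CDP and 6.10 to 6.43 elsewhere, and Cd247 lay between 6.68 and 6.86 on all arrays. Thy1, a surface protein of T cells and some progenitors, was at 6.90 in CDP and 5.90 to 6.31 elsewhere. Ubash3a, a regulator of T cell receptor signalling, was the other one past the threshold between progenitors and ran the other way. It was at 8.10 in MDP, 6.94 in CDP, 8.03 in cMoP, 6.03 in classical and 5.89 in nonclassical monocytes, lower in CDP than in MDP (-1.16) and in cMoP (-1.09). Natural killer and innate lymphoid markers reached it for 3 of 15 genes in MDP, CDP and cMoP, with list means from 5.18 to 5.32. Ncr1, the receptor NKp46 of natural killer cells, was between 3.85 and 4.18, highest in MDP, and Il18rap, a chain of the interleukin-18 receptor, was higher in MDP than in cMoP (1.04).

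Some dendritic cell markers were higher in CDP, the array that led for Cd7, Klrd1 and Ly6d. Of plasmacytoid markers 5 of 12 past the floor were higher in CDP than in MDP and 0 lower (median 0.83), led by Cd300c (2.16) and Siglech (1.98). The list's mean was 7.62 in CDP, 6.91 in MDP, 6.70 in cMoP, 7.32 in classical and 7.31 in nonclassical monocytes. Of conventional dendritic cell markers 7 of 11 were higher in CDP than in MDP and 0 lower (median 1.44), and the list mean was 7.57 in CDP against 6.23 to 6.71 elsewhere. Siglech was at 7.68 in CDP and 5.14 to 5.71 on the other arrays. Against classical monocytes 4 of 12 plasmacytoid markers were higher in CDP (2.38% of all genes) and 3 lower (6.34%). The lower ones were Tlr7 (-2.63), Irf7 (-2.51) and Smim5 (-1.07). Of 11 conventional markers 6 were higher in CDP in that comparison (2.38%) and 1, Naaa (-2.53), was lower (6.34%). The part of such cells in the CDP values of Cd7, Klrd1 and Ly6d was not tested.

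**Figure D4:**
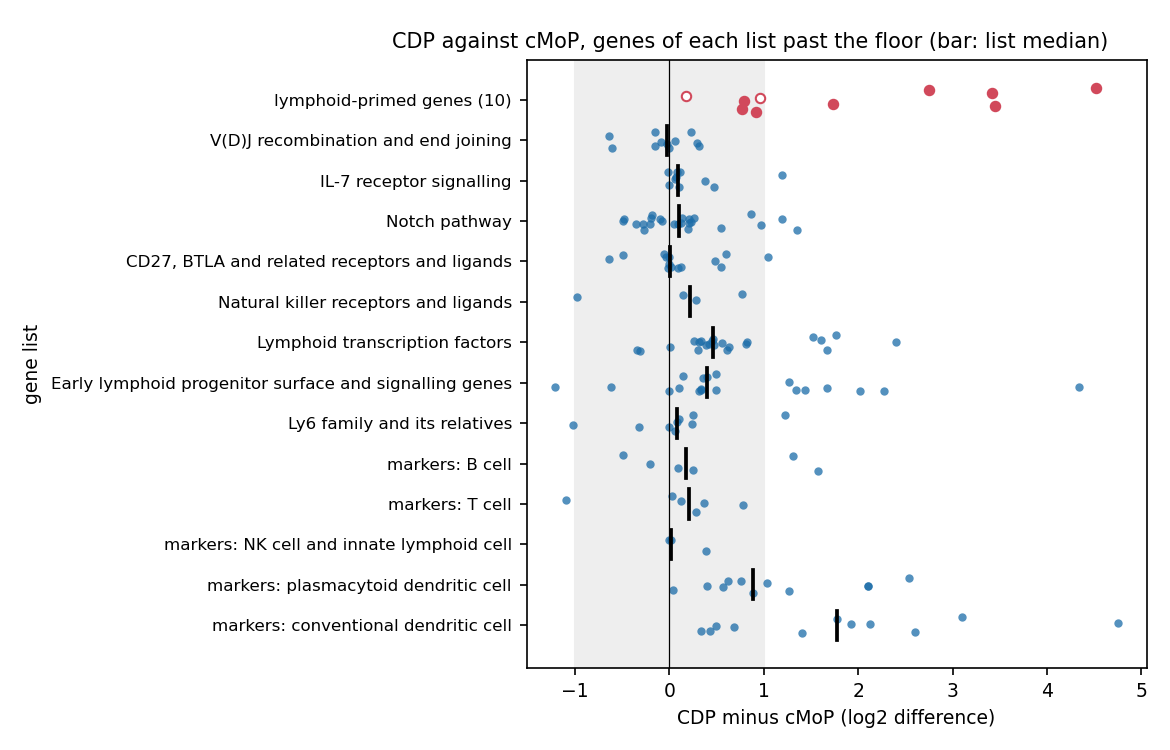
Log2 difference of CDP minus cMoP (horizontal axis) for the 10 genes (red, open where both arrays are under the floor) and for the genes of each related list past the floor (blue, black bar at the list median). The list medians run from -0.02 for V(D)J recombination to 1.77 for conventional dendritic cell markers, and the grey band covers less than 1 log2 unit.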

How the data were processed

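The authors' deposited table holds log2 values of 35556 probe sets on 5 arrays. Its scale was inferred, as the numbers span 1.59 to 14.24. The sources used here do not state the base of the logarithm, the background correction, the scaling or the software, and every fold depends on the base. Array medians were 6.14 (MDP), 6.13 (CDP), 6.02 (cMoP), 6.07 (classical) and 6.16 (nonclassical), and whether values were centred stays unknown. Identical values on at least 2 arrays occur in 46.6% of probe sets, which may hide small differences. RNA was prepared with the RNAqueous-Micro kit and biotin-labelled with the Nugen Encore kit, per the labels' protocols.

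Genes were named from the platform annotation (21789 probe sets with 1 symbol, 1621 with several, 12146 unlisted), taking the probe set with the highest mean. The named genes are all 10 members, up to 4 called genes per list and comparison, the 3 nearest in profile, and called chromosome neighbours. Members, lists and comparisons were chosen with earlier results of these data known. A list gene named only to place a member was chosen after its values were seen. Counting and profile search were tested on simulated data with very small noise, which checks the code and not the precision of these arrays. Python 3.11.15, numpy 2.4.6, pandas 2.3.3 and matplotlib 3.10.9 were used. Chromosome neighbours came from a RefSeq gene table (GRCm38.p6), which held all 10 members, and upstream sequence from a separate RefSeq promoter table, which held 7. Alternatives varied the floor, threshold, scaling and probe set rule. No p-value or SD was computed, since each population has 1 array, which limits the precision of every value.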

Additional observations from a re-analysis of the deposited data

How the results depend on the processing

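Each member count was recomputed with a floor at the upper quartile (7.93), with no floor, with a threshold of 1.5 log2 units, after quantile normalization, after median centring and with the mean of probe sets. Of 114 recomputed counts 107 stayed within 1.5 times. Many of these were counts of 0 that stayed 0, and the mean of probe sets left every member's values as they were. The 107 is therefore no measure of how stable the other counts are. With the 1.5 threshold the members lower in CDP than in MDP, lower in CDP than in classical monocytes, lower in nonclassical than in classical monocytes and led by MDP each numbered 0. With no floor 5 members were higher in MDP than in cMoP, Rag2 and Klrd1 being added. With the upper quartile floor 3 members, Dntt, Cd7 and Klrd1, were higher in CDP than in cMoP, and 0 were lower in classical monocytes than in cMoP. The 180 recomputed differences of single members under quantile normalization, centring and the mean of probe sets kept the call; each member has 1 probe set, so the last setting cannot change them. Direction turned in 1 case, Btla in MDP minus cMoP, from 0.08 to -0.05 after quantile normalization and -0.03 after centring. The identical Rag2 values of the monocyte arrays came to differ by -0.09 under both. Centring moved all differences of MDP minus cMoP by -0.11. No paired analysis was possible because each population has 1 array. Signals of Rag1, Rag2 and of the arrays under the floor limit what can be said of them.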
